A study of Mus musculus with 8 samples.

Results

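The kidney cortex of SAMP1 mice at 50 weeks was compared with that of SAMP1 mice at 10 weeks, which took in 4 of the 8 samples of the series. SAMP1 is an inbred mouse strain of the senescence-accelerated family that is prone to early ageing, and the other 4 samples came from SAMR1, the related strain that resists it. All mice were male and were described by strain and age alone, with no treatment. The groups held 2 mice of 10 weeks (replicates 4 and 5) and 2 mice of 50 weeks (replicates 1 and 4), with 1 array for each mouse. Total RNA from 10 mg of cortical tissue was used, and Cy3-labelled material from 50 ng was hybridised to an Agilent mouse array. The title of the series names messenger RNA signatures of age-dependent renal impairment. Genes of the immunoglobulin families were counted apart, and the description below is of the other genes.

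The kidney cortex consists mostly of proximal tubules, which take back filtered solutes, together with glomeruli, distal nephron segments, vessels and a small population of resident leukocytes. In ageing mouse kidneys, lymphocytes and antibody-secreting cells are known to gather, and clusters of B and T cells can form around vessels. Heat shock proteins of the Hsp70 family hold unfolded proteins in solution under stress, and their genes are switched on by the factor HSF1 at short elements in their promoters.

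The level of a gene is its log2 signal after the 75th percentile of that array was subtracted. A difference is the level at 50 weeks minus the level at 10 weeks, followed by its standard error (SE) from limma. A gene was called where its Benjamini-Hochberg adjusted p from limma, over all genes tested, was under 0.05. Outside the immunoglobulin families 144 of 21956 genes were called, which is 0.656% of them, with 111 higher (0.506%) and 33 lower (0.150%) at 50 weeks. A 2-fold difference or more was seen for 108 of the 144. An unadjusted p under 0.05 was found for 2285 genes. All 96 immunoglobulin genes called, of 131 tested, were higher. The highest rise outside these families was 5.94, beside a median of -0.029 over all genes. As the tissue was measured in bulk, a change in the number of cells of a type and a change in RNA per cell cannot be told apart.

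The share of spots well above background was 61.9% to 63.2% on the SAMP1 arrays. The nephron marker lists were well above background on all 4 arrays for each of their members, among them Slc34a1, the main phosphate carrier of the proximal tubule, with levels of 7.79, 7.76, 7.78 and 7.61, and Umod, which encodes uromodulin of the thick ascending limb, with levels of 8.29, 8.05, 8.17 and 8.25. Xist was well above background on 0 of the 4 arrays and 4 Y-linked genes on all 4, as the label male requires. Of 6 fat markers, Lep and Fabp4 were well above background on 4 arrays, Cidec and Retn on 1 and Adipoq and Plin1 on 0. Of 5 adrenal cortex markers, Cyp21a1 and Star were well above background on 4 arrays and Cyp11a1, Cyp11b1 and Mc2r on 0. Uroplakin genes of the urothelium were measured on all 4 arrays and were lowest on 50-week replicate 4, where Upk3a stood at -2.55 against -0.25, 0.05 and -0.59 on the others. The 10-week arrays lay in slide columns 1 and 2 and the 50-week arrays in columns 3 and 4, so the effect of age and that of the slide column cannot be told apart.

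Red cell genes differed between mice of the same age. The mean level of 5 haemoglobin genes was 1.25 and 3.64 on the 10-week replicates 4 and 5 and 5.54 and 3.32 on the 50-week replicates 1 and 4, so the groups overlapped. Hba-a1, an alpha chain of haemoglobin, differed by 2.11 ± 1.13 (SE) with an adjusted p of 0.553, and Alas2, the first enzyme of haem synthesis in red cells, by 2.02 ± 1.11 with an adjusted p of 0.564. The haemoglobin probes cannot separate near-identical copies. Slide row 1 held a pair of arrays whose haemoglobin level differed little (10-week replicate 5 and 50-week replicate 4), and the red cell list had a median difference of -0.30 there. Slide row 2 held the other pair, with a median of 4.19. Within row 1 the 144 called genes had a median absolute difference of 1.32 and within row 2 of 1.39. Agreement between rows was in part required for a call, so these values are a description. A fit with haemoglobin as a covariate called 22 genes, 19 of them among the 144. It left 3 residual degrees of freedom in place of 4, so a lost call does not measure the part of red cells. The called genes of each group described below kept their sign in that fit. This held for 10 of 10 genes of B and plasma cells and 13 of 13 other leukocyte genes. The part of red cells, or of blood left in the tissue, in the other changes was not tested.

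**Figure D1:**
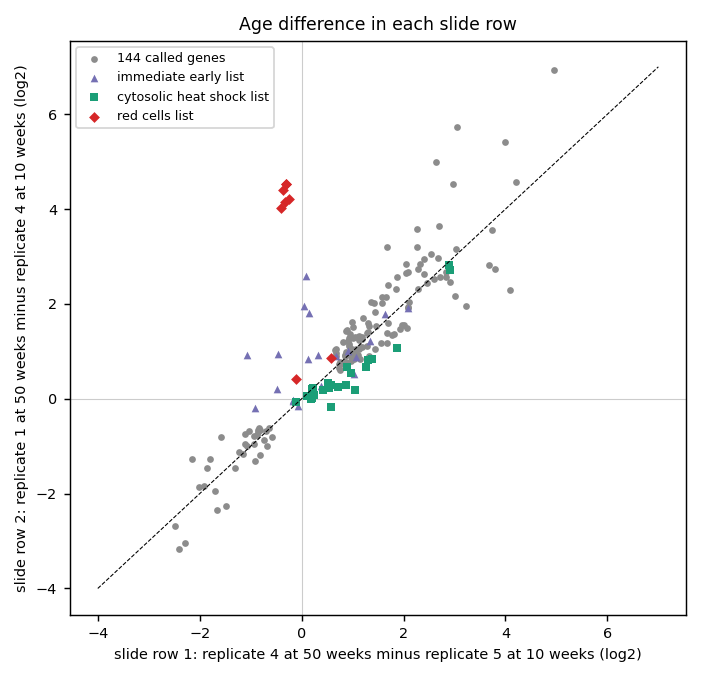
Age difference (log2, 50 minus 10 weeks) in slide row 1 on the x axis and in slide row 2 on the y axis, for the 144 called genes (grey, partly covered by list members) and the members of 3 lists; the dashed line marks equal differences. The haemoglobin genes and Alas2 lie near 0 in row 1 and at 4.03 to 4.53 in row 2. Genes that differ between rows were less able to be called, so the place of the called genes near the line is a description.

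**Figure D2:**
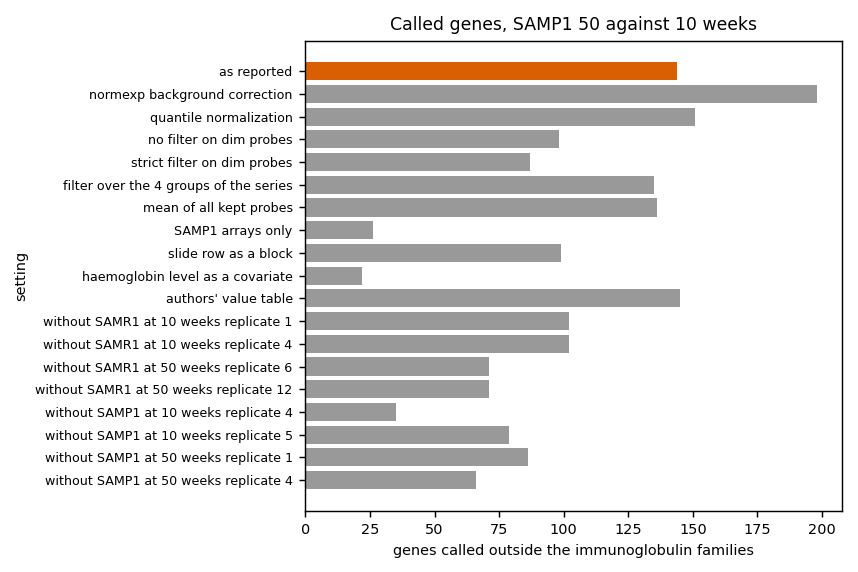
Number of genes called outside the immunoglobulin families as reported (orange, 144) and under each of the other settings (grey). The bars reach from 22, with haemoglobin as a covariate, to 198, with normexp background correction.

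The number of calls rested on few arrays. Leaving out 10-week replicate 4 gave 35 calls, and leaving out replicate 5 gave 79. Leaving out 50-week replicate 1 gave 86 and replicate 4 gave 66. The SAMR1 arrays enter through the shared estimate of the spread and through the choice of each gene's brightest probe, made over all 8 arrays. In the fits with slide row or haemoglobin they also enter through that term. Leaving out replicate 6 or replicate 12 of the SAMR1 50-week group also gave fewer calls. A fit of the 4 SAMP1 arrays alone called 26 genes, 21 of them among the 144, and a fit with the slide row as a block called 99, of which 89 were among the 144. Of 80 called genes followed through each setting, 11 passed without each of the 8 arrays in turn: A530040E14Rik, Azgp1, Cacna1s, Hrg, Hspa1a, Masp2, Ms4a1, Pou2af1, Slc7a12, Tnfrsf13c and Wfdc3. Of these, A530040E14Rik, Azgp1, Cacna1s, Masp2 and Slc7a12 also passed in all the other settings tried. Ms4a1, Pou2af1 and Tnfrsf13c were kept by the filter on dim probes only through the 50-week arrays, and Wfdc3 only through the 10-week arrays. The kept probes were the same in each fit that left out an array, so passing does not test that choice. Leaving out either array of a SAMR1 group gives the same SAMP1 test, as the array that remains adds no spread.

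Genes of B cells and plasma cells gave the highest rises at 50 weeks. Of 18 measured members of the list, 10 rose, 0 fell and 8 did not pass, and the list's median difference was 1.61 against -0.029 over all genes. This list had been part of an earlier description of the same samples, so its direction is no independent evidence. Jchain, whose product links antibody units into polymers, stood at -4.24 and -2.71 at 10 weeks and at 2.70 and 2.24 at 50 weeks. The 50-week arrays were both above the 10-week arrays, and the difference was 5.94 ± 0.647 (adjusted p = 0.0149). Ms4a1, which encodes the B cell surface protein CD20, lay below the background limit at 10 weeks and reached -1.86 and -1.84 at 50 weeks, at least 13.6-fold higher (adjusted p = 0.0104).

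A probe is said to lie below the background limit where neither array of the group had it well above background. For such a bound the dim probe was raised, on each dim array, to the lowest signal that counted as well above background there. A signal that was already higher was kept, and group means were then compared. The adjusted p beside a bound comes from the fit on the signals before they were raised, so it does not test the bound. Genes with a bound passed the filter on dim probes only through the age where they are high. Of the 144 called genes, 23 lay below the limit at 10 weeks and 10 at 50 weeks. Tnfrsf13c, the receptor for the B cell survival factor BAFF, likewise lay below that limit at 10 weeks and stood at -3.16 and -3.51 at 50 weeks, at least 4.86-fold higher (adjusted p = 0.000968). With no filter on dim probes it did not pass, where another probe of the gene was taken and the difference was 0.47. Pou2af1, a coactivator that works with octamer-binding factors in B cells, stood at -2.19 and -2.99 at 50 weeks and was at least 8.13-fold higher (adjusted p = 0.00499).

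Components of the B cell receptor complex and of plasma cell programmes also rose. Cd79b, a signalling chain of the receptor, went from -1.97 and -1.87 to 0.17 and -0.29, a difference of 1.86 ± 0.202 (adjusted p = 0.0149). Both 50-week levels were well clear of the 10-week levels. Its partner Cd79a, dim at 10 weeks, was at 1.58 ± 0.377 and did not pass (adjusted p = 0.182).

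Fcmr, the receptor for IgM, rose by 2.22 ± 0.301 (adjusted p = 0.0299), and Cd37, a tetraspanin of B cells, by 1.14 ± 0.113 (adjusted p = 0.0124). Mzb1, a chaperone of antibody assembly, stood at -2.71 and -2.62 at 10 weeks and at -0.68 and -1.26 at 50 weeks, a difference of 1.70 ± 0.238 (adjusted p = 0.0334). Irf4, a factor needed for plasma cell formation, rose by 1.64 ± 0.155 (adjusted p = 0.0104). Members that did not pass included Pax5, the factor that keeps B cell identity, at -0.17 ± 0.135, the complement receptor gene Cr2 at -0.11 ± 0.104, and Sdc1, which marks plasma cells but is also made by epithelia, at -0.11 ± 0.134.

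The promoters of the B cell list were searched for the octamer ATGCAAAT, the site of the factors that Pou2af1 assists, on both strands in the 250 bases before the gene's start. RefSeq windows of the GRCm38.p6 build were at hand for 13 of the 18 members. Of the 13, 0 held the octamer, beside 1.81% of the 27025 genes with a window. With a share this low a set of 13 genes would mostly hold 0, so the count cannot show a lack of the octamer. Of the 10 genes that rose, 3 passed without 10-week replicate 4, 4 without 10-week replicate 5, 4 without 50-week replicate 1 and 7 without 50-week replicate 4. With normexp background correction, which adds an offset of 50 and draws dim values together, the median of the list was 0.55 and 9 of the 10 passed. With haemoglobin as a covariate 2 of the 10 passed, and in the fit of the SAMP1 arrays alone 3.

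Outside the lists, 13 called genes with known roles in leukocytes were chosen after their values were seen, so their count says nothing of leukocyte genes as a group. Syk and Zap70 encode the tyrosine kinases that act below the B cell and T cell receptors. Syk stood at -3.64 and -3.07 at 10 weeks and at -2.05 and -1.78 at 50 weeks, a difference of 1.45 ± 0.204 (adjusted p = 0.0346), and Zap70 at -3.61 and -3.16 against -2.25 and -2.21, a difference of 1.16 ± 0.178 (adjusted p = 0.0474). Vav1, a signalling protein of blood cells that acts below antigen receptors, rose by 0.74 ± 0.115 (adjusted p = 0.0492). For each of these 3 genes the groups did not overlap, as was the case for 48.0% of all genes outside the immunoglobulin families (20.4% higher and 27.6% lower at 50 weeks).

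Among transcription factors of lymphocytes, Ikzf1 (Ikaros) rose by 1.71 ± 0.222 (adjusted p = 0.0262) and Batf by 1.54 ± 0.169 (adjusted p = 0.0153). Runx3 rose by 1.78 ± 0.233 on its brightest probe (adjusted p = 0.0269), while another kept probe of the gene was at -0.80. Bhlha15, a factor of secretory cells that include plasma cells, rose by 0.92 ± 0.115 (adjusted p = 0.0229).

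Coro1a, an actin-binding protein of leukocytes, rose by 0.84 ± 0.121 (adjusted p = 0.0369), Rac2, a small GTPase of blood cells, by 0.86 ± 0.125 (adjusted p = 0.0381), and the phagocyte oxidase subunit genes Ncf1 and Ncf4 by 1.00 ± 0.129 and 0.98 ± 0.148 (adjusted p = 0.0253 and 0.0448). Gimap3, a GTPase gene of lymphocytes, rose by 1.45 ± 0.218, and Pla2g2d, a secreted phospholipase, by 1.89 ± 0.242. Of these 13 genes 0 passed with haemoglobin as a covariate and 0 in the fit of the SAMP1 arrays alone. Without 10-week replicate 4 or 5, 1 and 2 of them passed, and without 50-week replicate 1 or 4, 3 and 2.

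Markers of T cells and myeloid cells were described in the same way. Of 13 measured T cell markers 0 passed, with a median of 0.77, and the highest was the adhesion gene Cd2, at 1.88 ± 0.332 (adjusted p = 0.0745), while Cd8a stood at -0.41 ± 0.365. Of 19 macrophage and dendritic cell markers 1 rose, with a median of 0.12. It was Lyz2, the lysozyme of macrophages, which went from 3.06 and 3.15 to 3.86 and 4.12 (0.89 ± 0.137, adjusted p = 0.0489). All 9 measured MHC class II genes, whose products present antigen to helper T cells, had positive differences of 0.58 to 1.22. Of these 9 genes 0 passed. Their groups did not overlap, as was the case, in the higher direction, for 20.4% of all genes outside the immunoglobulin families. Of 25 interferon response genes 0 passed, 14 were positive and the median was 0.05.

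Of 20 chemokine and lymphoid organiser genes 1 rose, with a median of 0.90. It was Ltb, a membrane lymphotoxin that organises lymphoid tissue, at -1.69 and -0.95 at 10 weeks and 0.34 and 0.48 at 50 weeks, a difference of 1.73 ± 0.247 (adjusted p = 0.0365). The B cell chemoattractant gene Cxcl13 had the highest difference of the list, 3.75 ± 0.656, with levels of -6.69 and -4.92 against -1.44 and -2.67. It was well above background on 1 of the 2 arrays at 10 weeks and did not pass (adjusted p = 0.0722).

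**Figure D3:**
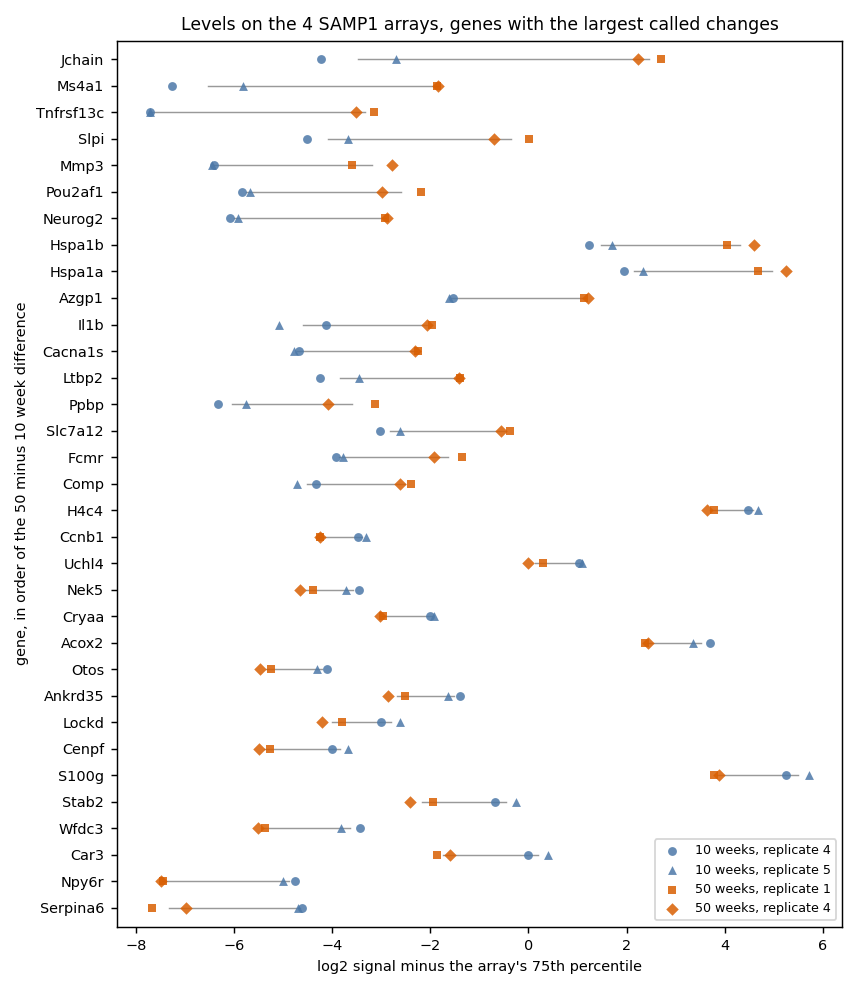
Level of each gene (log2 signal minus the array's 75th percentile) on the 4 SAMP1 arrays, for 33 named genes with the largest called changes, from the deepest fall (bottom) to the highest rise (top). Blue marks are the 10-week arrays, orange marks the 50-week arrays, and the grey line joins the group means. For each gene shown the groups do not overlap. The genes were chosen by their called changes, so this is a description. Over all genes outside the immunoglobulin families the groups do not overlap for 48.0%.

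Hspa1a and Hspa1b, the stress-inducible Hsp70 genes of the cytosolic heat shock list, rose at 50 weeks. Of 23 measured members of the list 2 rose, 0 fell and 21 did not pass, and 22 of the 23 had positive differences, with a median of 0.43. Hspa1a stood at 1.95 and 2.35 at 10 weeks and at 4.67 and 5.26 at 50 weeks, a difference of 2.82 ± 0.233, or 7.05-fold (adjusted p = 0.00693). Hspa1b stood at 1.24 and 1.70 against 4.05 and 4.60, a difference of 2.85 ± 0.281, or 7.23-fold (adjusted p = 0.0123).

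The promoters of this pair are shown with the match to the core pair of a heat shock element marked in each. They lie before the gene's start, so their likeness does not measure how far the probes share signal. The sequences of the probes and transcripts were not compared. The sequences are the 250 bases before each gene's start, from RefSeq on GRCm38.p6, read 5′ to 3′ on the minus strand, with capitals marking GAANNTTC, the core pair of a heat shock element. Hspa1a lies at chr17:34972157-34972406 and Hspa1b at chr17:34959239-34959488.
Hspa1a: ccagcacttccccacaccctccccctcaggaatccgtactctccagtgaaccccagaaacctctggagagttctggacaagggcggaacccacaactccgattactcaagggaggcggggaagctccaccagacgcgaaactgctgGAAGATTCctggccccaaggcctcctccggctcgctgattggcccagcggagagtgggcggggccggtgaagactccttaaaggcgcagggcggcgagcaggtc
Hspa1b: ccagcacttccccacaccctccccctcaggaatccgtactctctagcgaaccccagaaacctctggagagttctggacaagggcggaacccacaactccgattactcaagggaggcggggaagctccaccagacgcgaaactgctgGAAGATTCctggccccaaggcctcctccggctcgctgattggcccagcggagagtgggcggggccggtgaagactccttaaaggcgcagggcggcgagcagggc
The windows shared 247 of 250 bases (98.8%), and in each the first base of the match lay 104 bases before the start. Only GAANNTTC was searched for, so heat shock elements of another arrangement would not be marked. The genes are near-identical copies, so their probes may share signal, and the pair counts as uncertain where it is taken as 2 separate changes. GAANNTTC reads the same on both strands. It was present in 7 of the 18 list members with a window (38.9%), beside 7.73% of the 27025 genes. The 7 genes do not hold separate sites. The windows of Hspd1 and Hspe1 overlap on opposite strands and share the same match, and Hspa1a and Hspa1b are near-identical copies. The share of 38.9% is thus a description. Hspd1 and Hspe1 encode mitochondrial chaperonins, so the word cytosolic in the name of the list does not hold for them. The members with a match had a median difference of 0.78 and those without, 11 genes, of 0.47, given as a description.

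On the array's mm9 coordinates the Hspa1b probe lies at chr17:35093374-35093405 and the Hspa1a probe at chr17:35106766-35106825. Between them, 2716 bases from the Hspa1b probe, lies the probe of the clone gene 7330403C04Rik, chosen after its values were seen. It lay below the background limit at 10 weeks (-6.68 and -7.70), stood at -4.73 and -4.48 at 50 weeks and was at least 2.02-fold higher (adjusted p = 0.0269).

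The other chaperone genes followed with smaller differences, none of which passed. Hspb1, a small heat shock protein, stood at 3.15 and 3.24 at 10 weeks and at 4.22 and 5.11 at 50 weeks, and Hsph1, a partner of Hsp70, at 3.16 and 3.29 against 4.00 and 4.67. Dnajb1, a cochaperone that feeds substrates to Hsp70, stood at 3.94 and 4.14 against 4.61 and 5.41. In each of these 3 genes 50-week replicate 4 was the highest array. Hspa8, the constitutive Hsp70, was at 0.21 ± 0.126, and Hspa2, a testis form, was the lowest member at -0.08 ± 0.113.

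Of 20 genes of endoplasmic reticulum stress 0 passed, 19 were positive, and the median was 0.51, with Creld2, a secretory pathway stress gene, the highest at 1.17 ± 0.413. Hspa1a passed without each array in turn, and Hspa1b lost its call without 10-week replicate 4. Neither gene passed with haemoglobin as a covariate or in the fit of the SAMP1 arrays alone, and the highest adjusted p over all settings was 0.0656 for Hspa1a and 0.0895 for Hspa1b. The difference ranged over those settings from 2.53 to 3.11 for Hspa1a and from 2.58 to 3.13 for Hspa1b.

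**Figure D4:**
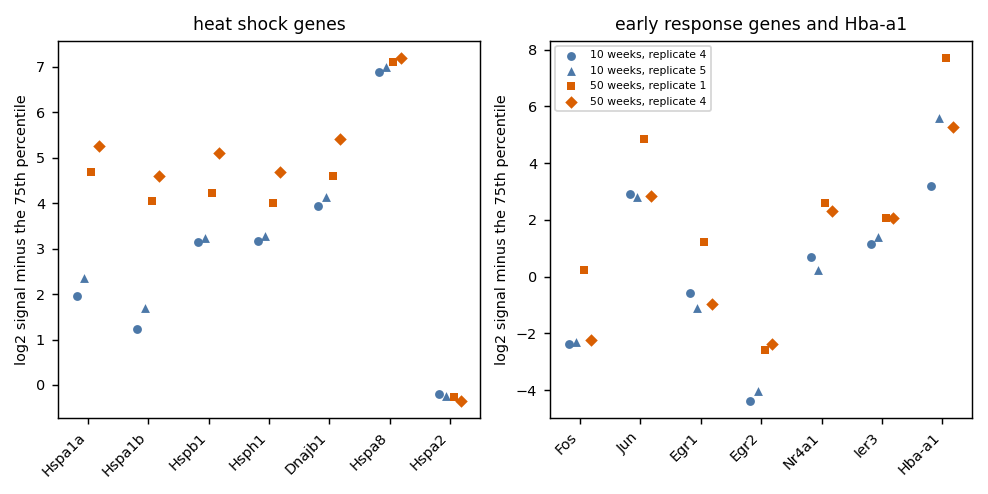
Levels (log2 signal minus the array's 75th percentile) of 7 heat shock genes (left) and of 6 early response genes with Hba-a1 (right) on each SAMP1 array. The Hsp70 genes Hspa1a and Hspa1b are high on both 50-week arrays, while Fos, Jun and Egr1 are high only on 50-week replicate 1, which also has the highest Hba-a1.

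Immediate early genes, which are switched on within minutes of a stimulus, did not move as a block. Of 20 measured members 2 rose and 0 fell, with a median of 0.70. Nr4a1, an orphan nuclear receptor, stood at 0.69 and 0.23 at 10 weeks and at 2.59 and 2.32 at 50 weeks, a difference of 2.00 ± 0.274 (adjusted p = 0.0313). Ier3, a stress and survival gene, rose from 1.16 and 1.39 to 2.07 and 2.07, by 0.80 ± 0.113 (adjusted p = 0.0346). Both genes were up in both slide rows.

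Fos, a subunit of the AP-1 factor, stood at -2.36 and -2.31 at 10 weeks and at 0.22 and -2.23 at 50 weeks. Jun, its partner, stood at 2.90 and 2.81 against 4.86 and 2.85, and Egr1, a zinc finger factor, at -0.57 and -1.12 against 1.23 and -0.98. These 3 genes were high on 50-week replicate 1 alone, the array with the highest haemoglobin, and whether the level of red cell RNA or the handling of that mouse had a part in this was not tested. The median of the whole list was 0.13 in slide row 1 and 0.91 in row 2. Egr2 was up on both 50-week arrays (-4.37 and -4.03 against -2.59 and -2.39) and did not pass (adjusted p = 0.0803).

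Inflammatory and secretory phenotype genes contributed 2 rises among 17 measured members, with a median of 0.54. Il1b, the cytokine interleukin-1 beta, stood at -4.14 and -5.08 at 10 weeks and at -1.97 and -2.08 at 50 weeks, a difference of 2.59 ± 0.303 (adjusted p = 0.0180). Mmp3, a matrix-degrading enzyme, lay below the background limit at 10 weeks and stood at -3.60 and -2.78 at 50 weeks, at least 5.36-fold higher (adjusted p = 0.0231). Gdf15, a stress cytokine, was at 1.40 ± 0.223 (adjusted p = 0.0547). The p16 gene Cdkn2a, a marker of senescent cells, stood at -5.69 and -7.84 against -4.97 and -4.30 and did not pass (adjusted p = 0.294).

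Ppbp, a chemokine of platelets, lay below the background limit at 10 weeks, stood at -3.13 and -4.10 at 50 weeks and was at least 4.02-fold higher (adjusted p = 0.0287). Its highest array was that with the most haemoglobin. Cdkn1a, the cell cycle inhibitor p21, was at 0.82 ± 0.182, the tubular injury genes Havcr1 and Lcn2 at 1.05 ± 0.371 and 1.12 ± 0.636, and 0 of 22 tubular injury genes passed. Of the 6 genes Il1b, Mmp3, Ltb, Ppbp, Nr4a1 and Ier3, 1 and 2 passed without 10-week replicates 4 and 5, 2 and 1 without 50-week replicates 1 and 4, and 0 in the fit of the SAMP1 arrays alone or with haemoglobin as a covariate.

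The complement genes Masp2, C4b, C4a and C3 rose at 50 weeks. Of 21 measured members 4 rose, 0 fell and 17 did not pass, with a median of 0.15. Masp2, the serine protease that starts the lectin pathway, stood at -2.40 and -2.53 at 10 weeks and at -0.80 and -0.83 at 50 weeks, a difference of 1.65 ± 0.115 (adjusted p = 0.00415). C4b, the fourth component, stood at 1.82 and 1.80 against 3.00 and 3.37, a difference of 1.37 ± 0.147 (adjusted p = 0.0143). C4a, its near-identical neighbour 83.4 kb away on mm9 chromosome 17, rose by 1.25 ± 0.125 (adjusted p = 0.0125), and these probes may share signal. C3, the central component, stood at 1.66 and 2.07 against 2.96 and 3.12, a difference of 1.18 ± 0.156 (adjusted p = 0.0278).

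Acute phase and antiprotease genes moved in both directions, with 2 of 13 members higher, 1 lower and a median of 0.41. Slpi, an inhibitor of neutrophil proteases, stood at -4.52 and -3.68 at 10 weeks and at 0.01 and -0.71 at 50 weeks, a difference of 3.75 ± 0.439 on its brighter probe (adjusted p = 0.0180), while its other kept probe was at 0.07. Serpina3n, a serpin of the acute phase, lay below the background limit at 10 weeks and was at least 2.55-fold higher (adjusted p = 0.0292). Serpina6, which encodes the plasma carrier of corticosteroids, stood at -4.62 and -4.71 at 10 weeks, lay below the background limit at 50 weeks and was at least 1.75-fold lower (adjusted p = 0.00979).

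The plasma protein genes Hrg (histidine-rich glycoprotein) and Itih3 (a chain of inter-alpha-trypsin inhibitor), chosen after their values were seen, rose by 1.36 ± 0.116 and 0.97 ± 0.140 (adjusted p = 0.00746 and 0.0374). Of the 10 genes Masp2, C4b, C4a, C3, Slpi, Serpina3n, Serpina6, Hrg, Itih3 and Lyz2, 2 and 6 passed without 10-week replicates 4 and 5, 5 and 6 without 50-week replicates 1 and 4, and 1 with haemoglobin as a covariate.

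**Figure D5:**
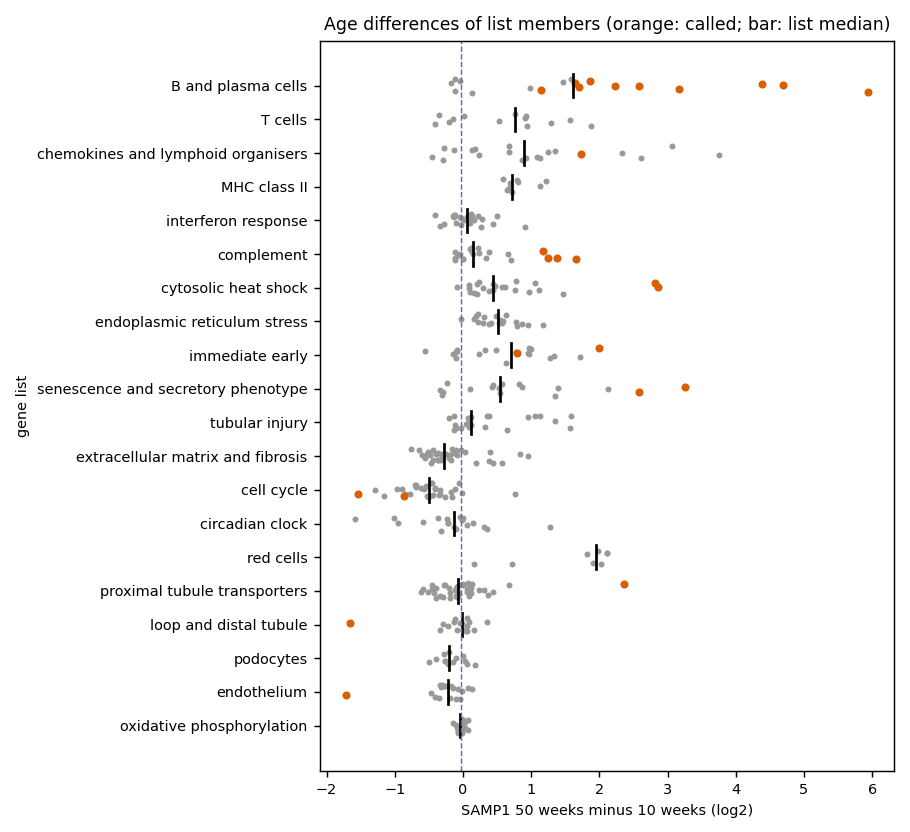
Difference between 50 and 10 weeks (log2) of each measured member of 20 gene lists, with called members in orange, other members in grey and the list median as a black bar; the dashed line is the median over all genes (-0.029). B and plasma cell genes reach 5.94, the cell cycle list lies below 0 but for 1 member, and the oxidative phosphorylation list lies within 0.15 of 0.

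Tubular transport and metabolism genes were largely level, with single genes that moved far. Of 42 proximal tubule transporters 1 rose, with a median of -0.08, and of 24 oxidative phosphorylation genes 0 passed, with all differences between -0.14 and 0.08. The transporter that rose was Slc7a12, an amino acid carrier that is known to be kept low by androgen in mouse kidney. It stood at -3.03 and -2.63 at 10 weeks and at -0.38 and -0.57 at 50 weeks, a difference of 2.35 ± 0.166 (adjusted p = 0.00415). The 50-week arrays were close together and far above both 10-week arrays. Of 11 androgen-dependent kidney genes 0 passed, with a median of 0.05. Of 5 female-biased kidney genes, 1 rose, which was Slc7a12, and 4 did not pass. The differences of that list ran from -2.42 to 2.35, with 3 positive and 2 negative. The part of androgen was not tested.

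Azgp1, a secreted zinc-binding glycoprotein, had the smallest adjusted p of the genes described here, at -1.53 and -1.62 at 10 weeks and 1.13 and 1.22 at 50 weeks, a difference of 2.75 ± 0.118, or 6.74-fold (adjusted p = 0.000665). Of 29 xenobiotic metabolism genes 2 rose, with a median of 0.07, and they were Cyp2a4 and Cyp2a5, steroid and coumarin hydroxylases of the same gene cluster. Cyp2a4 stood at 5.28 and 5.06 against 6.12 and 6.21, a difference of 0.99 ± 0.107 (adjusted p = 0.0149), and Cyp2a5 rose by 0.82 ± 0.084 (adjusted p = 0.0125). The pair is nearly identical in sequence and may share signal.

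Ces1g, a carboxylesterase, and Acnat2, an enzyme of fatty acid conjugation, were chosen after their values were seen. Ces1g stood at 1.45 and 0.95 at 10 weeks and at 3.01 and 2.93 at 50 weeks, a difference of 1.77 ± 0.233 (adjusted p = 0.0275), and Acnat2 rose by 1.00 ± 0.138 (adjusted p = 0.0328). The ABC exporters Abcb1b and Abcb4, neighbours on chromosome 5 with probes 93.1 kb apart on mm9 and also chosen after the fact, rose by 1.23 ± 0.129 and 1.14 ± 0.173 (adjusted p = 0.0134 and 0.0455).

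Among the falls, S100g, the vitamin D-dependent calcium carrier calbindin-D9k of the distal nephron, stood at 5.26 and 5.73 at 10 weeks and at 3.79 and 3.88 at 50 weeks, a difference of -1.66 ± 0.168 (adjusted p = 0.0125). It was the 1 of 18 loop and distal tubule genes to pass. Car3, a carbonic anhydrase of muscle and fat, stood at -0.01 and 0.41 against -1.86 and -1.61, a difference of -1.93 ± 0.200 (adjusted p = 0.0129). It is the 1 of 7 measured members of the adipocyte list to pass. The summed linear level of the 6 fat markers, relative to the 75th percentile, was 7.87 and 6.87 at 10 weeks and 7.95 and 9.41 at 50 weeks. That sum was set largely by Fabp4, at 2.91 and 2.72 against 2.94 and 3.19. The other fat markers stood at -1.98 or lower on each array, so the sum says little of them. Cidec and Retn had their highest signal on 10-week replicate 4 (-4.37 and -5.25), as did Adipoq and Plin1. The part of fat in the fall of Car3 was not tested. Acox2, a peroxisomal oxidase of branched-chain lipids and bile acid intermediates, stood at 3.70 and 3.36 against 2.39 and 2.44, a difference of -1.12 ± 0.142 (adjusted p = 0.0245).

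Kl, which encodes the anti-ageing hormone klotho, was at -0.13 ± 0.132, and Nphs1, a slit diaphragm gene of podocytes, at -0.26 ± 0.164, and neither passed. Ren1, renin, stood at 2.12 and 2.43 against 1.28 and 1.35, with an SE of 0.576 that left it short of a call (adjusted p = 0.590). Of the 11 called genes of metabolism and transport named above, 4 and 4 passed without 10-week replicates 4 and 5, 2 and 4 without 50-week replicates 1 and 4, and 3 with haemoglobin as a covariate.

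Of the genes of cell division, Ccnb1 and Cenpf fell at 50 weeks. Among 32 cell cycle genes with a measurement, 2 passed and were lower, 30 did not pass, 31 differences were negative and the median was -0.50. Ccnb1, the cyclin that drives entry into mitosis, stood at -3.47 and -3.31 at 10 weeks and at -4.26 and -4.25 at 50 weeks, a difference of -0.87 ± 0.101 (adjusted p = 0.0176). Cenpf, a kinetochore protein, stood at -4.01 and -3.69 at 10 weeks, lay below the background limit at 50 weeks and was lower by a factor of at least 2.89 (adjusted p = 0.0107). Another kept probe of it was at -0.61. Cdc20, an activator of the anaphase ligase, was at -1.16 ± 0.213 and did not pass (adjusted p = 0.0844). The exception in sign was Tpx2, a spindle factor, at -4.37 and -4.03 against -4.79 and -2.08, where 1 array of 50 weeks stood apart.

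Outside that list, the histone gene H4c4 stood at 4.47 and 4.68 at 10 weeks and at 3.78 and 3.64 at 50 weeks, a difference of -0.86 ± 0.121 (adjusted p = 0.0343). H4c12 and H4c14, chosen after their values were seen, were at -0.78 ± 0.109 and -0.73 ± 0.101 (adjusted p = 0.0331 and 0.0328), and as H4 genes code for 1 protein from near-identical copies, the 3 probes may read shared RNA. Lockd, a long noncoding RNA beside the cell cycle inhibitor gene Cdkn1b, fell by 1.19 (SE 0.182, adjusted p = 0.0458), and Nek5, a kinase of the NIMA family, by 0.95 (SE 0.134, adjusted p = 0.0350). Of these 7 genes, 1 and 1 passed without 10-week replicates 4 and 5, 1 and 0 without 50-week replicates 1 and 4, and 1 with haemoglobin as a covariate.

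Matrix genes did not rise as a list. Of 34 measured extracellular matrix and fibrosis genes 0 passed, 26 were negative, and the median was -0.28. Col1a1, the main fibrillar collagen chain, stood at 0.57 and -0.08 at 10 weeks and at -0.71 and 0.00 at 50 weeks, and Sparc, a matrix glycoprotein, was the lowest member at -0.76 ± 0.204. Tgfb1, the profibrotic cytokine, was at -0.10 ± 0.184. Outside the list, Ltbp2, a fibrillin-binding protein, stood at -4.25 and -3.46 against -1.40 and -1.41, a difference of 2.45 ± 0.269 (adjusted p = 0.0153). Comp, a matrix protein of cartilage and tendon, rose by 2.01 ± 0.249 (adjusted p = 0.0223).

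Further genes with large changes belonged to no list. Cacna1s, the calcium channel of skeletal muscle, stood at -4.69 and -4.78 at 10 weeks and at -2.24 and -2.32 at 50 weeks, a difference of 2.45 ± 0.172 (adjusted p = 0.00415). Neurog2, a neuronal transcription factor, lay below the background limit at 10 weeks and was at least 6.52-fold higher (adjusted p = 0.0243). The X-linked homeobox genes Rhox6 and Rhox9, with probes 71.1 kb apart on mm9 and chosen after their values were seen, rose by 1.56 ± 0.188 and 1.42 ± 0.197 (adjusted p = 0.0201 and 0.0329).

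Csprs, also chosen after its values were seen, belongs to a multicopy family, and it rose by 1.59 ± 0.160 (adjusted p = 0.0125). On mm9 chromosome 1, 5 further called probes between 85.1 and 87.4 Mb, with clone or coordinate names, rose by 1.80 to 2.67. One of them, A530040E14Rik, also chosen after its values were seen, stood at -4.22 and -4.06 at 10 weeks and at -1.89 and -2.22 at 50 weeks. Whether these probes read separate transcripts was not tested.

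Stab2, a scavenger receptor of sinusoidal endothelium, stood at -0.67 and -0.26 at 10 weeks and at -1.94 and -2.41 at 50 weeks, a difference of -1.71 ± 0.238 (adjusted p = 0.0329). It was the 1 of 18 endothelial genes to pass, and the list had a median of -0.23. Wfdc3, a gene of the whey acidic protein family of protease inhibitors, lay below the background limit at 50 weeks and was at least 3.47-fold lower (adjusted p = 0.00695), but another kept probe of it was at 0.60. Npy6r, a receptor of the neuropeptide Y family, was at least 1.50-fold lower (adjusted p = 0.0222).

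Ankrd35, an ankyrin repeat gene, fell by 1.17 (SE 0.147), Otos, otospiralin, by 1.15 (SE 0.149), Cryaa, a lens crystallin, by 1.04 (SE 0.126) and Uchl4, a ubiquitin hydrolase, by 0.92 (SE 0.137). A second kept probe of Otos was at 0.03. Of the 15 called genes from Ltbp2 and Comp to these, A530040E14Rik included, 5 and 5 passed without 10-week replicates 4 and 5, 4 and 3 without 50-week replicates 1 and 4, and 2 with haemoglobin as a covariate.

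Clock genes, which cycle over the day, were spread in both directions, with 0 of 19 passing and a median of -0.13. Arntl, the positive arm of the clock, stood at -3.38 and -3.68 at 10 weeks and at -1.78 and -2.72 at 50 weeks. Ciart, a repressor, stood at -2.03 and -1.50 against -3.14 and -3.54, and Dbp, an output gene, at 5.76 and 6.06 against 4.94 and 4.99. The groups did not overlap in these 3 genes. Over the list 1 gene was higher and 8 were lower without overlap, 9 of 19 beside 48.0% of all genes. The hour of tissue collection is not given in the sources used here, and its part was not tested.

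The same age contrast in SAMR1 called 103 genes outside the immunoglobulin families. It covered the genes kept through the SAMP1 groups, so a gene well above background only in SAMR1 could not be called. In both strains 45 genes were called in the same direction, which is 31.2% of the SAMP1 calls and 43.7% of these SAMR1 calls. Both contrasts share the estimate of the spread, and they share no array. The test of the difference between the strains, the age by strain interaction, called 0 genes (0%) by limma, with 1408 at an unadjusted p under 0.05, so no change above is shown to be particular to SAMP1. Side by side, Azgp1 was at 2.75 in SAMP1 and 2.32 in SAMR1, Masp2 at 1.65 and 2.42, Slpi at 3.75 and 3.78, and Jchain at 5.94 and 5.09.

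For other genes the values stood further apart. Slc7a12 was at 2.35 in SAMP1 and -0.10 in SAMR1, and Il1b at 2.59 and -0.32. Tnfrsf13c lay below the background limit at both ages in SAMR1, so no difference is given there. The difference passed for none of these genes as reported. Tnfrsf13c passed with quantile normalization, with the dim-probe filter over all 4 groups and without SAMR1 10-week replicate 1, and Slc7a12, Car3, Ces1g and Ms4a1 with normexp background correction. Haemoglobin genes went the other way in SAMR1, with Hba-a1 at -5.38 there. The fit with haemoglobin as a covariate called 0 interactions, as did the fit as reported. With 0 calls in each, that fit cannot tell whether haemoglobin had a part in the contrasts between strains.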

How the data were processed

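Messenger RNA was measured in kidney cortex on 8 one-colour Agilent arrays, of which the 4 SAMP1 arrays are described. The spot intensity values were deposited by the authors from Feature Extraction 12.0.3.1 (named in the submitters' processing notes), and per the file headers the processed intensity was background-subtracted and corrected within the array only. The deposited mean and local background intensity values served for the normexp alternative. Flags for outlier spots and for being well above background were used as deposited. A log2 value table was also deposited by the authors, and its making is not given in the sources used here. Each column matched log2 processed intensity minus the 75th percentile, centred per probe, and it served as an alternative.

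From the 56605 probes that were not controls, the log2 of processed intensity was taken, the 75th percentile of each array subtracted and spots of a probe averaged. A probe was kept if 1 SAMP1 group or more had it well above background on both arrays. Each gene was its brightest kept probe, by the mean over all 8 arrays. This left 22087 genes, 131 of them immunoglobulin genes by name or description. In all, 35405 probes were named by accession from a RefSeq table of GRCm38.p6 and 21200 kept the file's name. The file headers give probe positions on mm9, and exons and UTRs were not analysed here. The test was that of limma 3.58.1 in R 4.3.3, 2-sided, over all 8 arrays with 1 coefficient per group, residual degrees of freedom of 4 (prior 2.36), and with Benjamini-Hochberg adjustment over all genes tested. The number of arrays limits the precision.

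Named genes outside the immunoglobulin families were the 12 highest rises and 12 deepest falls among called genes measured at both ages, the 6 rises and up to 6 falls with the largest bounds, called members and extremes of gene lists, and a fixed set of kidney genes. Others are stated as chosen after their values were seen. That also holds for Upk3a and for the list members Cd79a, Cr2, Sdc1, Hspb1, Hsph1, Dnajb1, Hspa8, Fos, Jun, Egr1, Egr2, Cdc20 and Dbp. Some genes that the rule names are not reported here, though list counts include them. The genes and lists were chosen with earlier results of these data known, and no set test was run. The alternatives were normexp, quantile normalization, other filters on dim probes, the mean of probes, the SAMP1 arrays alone, the slide row as a block, haemoglobin as a covariate, the authors' table and leaving out each array. The 8 arrays shared 1 slide and 1 scan.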

Additional observations from a re-analysis of the deposited data

How the results depend on the processing

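As reported, 144 genes were called outside the immunoglobulin families. The count was 87 with the strict filter on dim probes, 26 with the SAMP1 arrays only and 22 with haemoglobin as a covariate, and 35 to 102 when 1 array was left out. Fewer arrays or an added covariate give fewer degrees of freedom, and the cause of the shifts was not tested. The age by strain interaction called 0 genes as reported and 0 to 1 with 1 array left out. It called 9 with normexp, 1 with quantile normalization, 1 with the filter over all 4 groups and 1 with the slide row as a block. With normexp 198 genes were called, of which 99 were among the 144.

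Among the genes described, Otos was the called gene that reversed, at 0.029 with the strict filter. Other called falls kept their sign but came near 0 in some setting. The smallest fall was -0.023 for Npy6r, -0.093 for Serpina6, -0.096 for Cenpf, -0.097 for Nek5, -0.12 for Ccnb1 and -0.16 for Wfdc3. Called rises went down to 0.23, for Bhlha15. Of the genes not called, Pax5 became 0.071 with normexp and Tgfb1 0.13 with the mean of probes. With haemoglobin as a covariate Actb became -0.0040, Alas2 -0.020 and Tgfb1 0.13. With 1 array left out, Actb ranged from -0.042 to 0.10, Egr1 from -0.14 to 2.08, Jun from -0.0023 to 2.01, Kl from -0.27 to 0.0094, Slc34a1 from -0.16 to 0.0065, Tgfb1 from -0.37 to 0.17, Tpx2 from -0.59 to 2.12 and Umod from -0.077 to 0.16. No paired analysis was possible because the SAMP1 groups share only replicate number 4, and the slide row is a position, not a replicate number. Genes below background at 1 age have only a bound there.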
